A study of Oryctolagus cuniculus with 12 samples.

Results

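Uterine bodies of rabbits infused with lipopolysaccharide (LPS), the outer-membrane glycolipid of Gram-negative bacteria, were compared with those of rabbits infused with saline. The comparison used the 3 libraries titled LPS and the 3 titled control, 6 of the 12 libraries of the series, and the genes that reached 1 FPKM in at least 3 of these 6 libraries. FPKM, a fragment count scaled to transcript length and library size, was the measure of expression. Of the 17301 genes in the deposited tables, 12258 met this rule, 11273 with an Ensembl identifier and 985 assembled by the authors from the reads.

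All 12 animals were New Zealand White rabbits whose estrus and ovulation had been synchronised with the gonadotropins eCG and hCG. LPS animals received 4 mg/kg of LPS and an injection without cyclosporine A into the muscle, and Control animals received saline and the same kind of injection. LPS+CsA animals received 4 mg/kg of LPS with 20 mg/kg of cyclosporine A (CsA), an inhibitor of calcineurin and thus of T cell activation, and CsA animals received saline with 20 mg/kg of CsA. Tissue of the uterine body was taken after 3 h of treatment, from 3 animals per group, 1 library each. The labels name the uterus in one place and the vagina in another as the site of infusion, and saline in one place and CsA solvent in another as the injection of the animals without CsA. They also differ on whether the injection came with the infusion or after it, so the time from LPS to sampling is not settled by them.

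LPS is recognised by Toll-like receptor 4 with its partners MD-2 and CD14. One branch of the signal, through MyD88 and the transcription factor NF-kB, turns on cytokines, chemokines and their own inhibitors; the other, through TRIF and IRF3, turns on type I interferon, which then drives the interferon-stimulated genes of antiviral defence. In the uterus, epithelial and stromal cells and resident macrophages carry the receptor, and neutrophils enter from the blood soon after bacterial products arrive.

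A gene symbol was available for 224 of the 12258 genes (1.83%), because symbols came from the authors' deposited comparison tables alone. The authors had chosen those genes on these same libraries, as differing between LPS and Control or between LPS+CsA and LPS, so a count over genes with a symbol is not independent evidence of a direction. TLR4, CD14, TNF, IL1B, IL6 and PTGS2 are not analysed here for that reason. The tissue label could not be checked against its defining markers, since no marker of smooth muscle, stroma, glandular epithelium or endothelium had a symbol. Of 65 markers of 13 cell types, 11 were measured, and they belonged to plasma cells, T cells, neutrophils, erythroid cells and multiciliated epithelium.

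Read totals, and so the sizes of the libraries, are not known. Between 12021 and 12264 genes reached 1 FPKM in each of the 6 libraries, and the FPKM sums lay between 579986 and 747163. LPS 1 stood apart from the Control libraries, with correlations across genes of 0.946 to 0.949 to the 3 of them, against 0.958 to 0.973 for all other pairs of the 6 libraries. It was at least 2-fold above the 5 other libraries for 74 genes and at least 2-fold below them for 53. Control 3 was at least 2-fold above the others for 35 genes, and the remaining libraries for 7 to 18. Control 1 was at least 2-fold below the others for 39 genes, Control 2 for 27 and Control 3 for 14. Control 3 also held the highest level of the neutrophil, chemokine and several plasma cell genes. Over all genes tested, however, Control 3 held the highest value for 11.3%, against 24.9% for Control 2. The lowest value was in Control 3 for 13.5% and in Control 1 for 23.7%. Results resting on LPS 1 or Control 3 are given with and without them.

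No gene passed the test across all genes. Limma, fitted on log2(FPKM + 1) over all 12 libraries, called 0 of the 12258 genes (0%) at a Benjamini-Hochberg adjusted p under 0.05, two-sided, and the smallest adjusted p was 0.344. Before adjustment, 803 genes (6.55%) had a p under 0.05, where 612.9 is 5% of the genes tested. Of these, 503 (4.1%) were higher and 300 (2.45%) lower in LPS. With a difference of at least 2-fold there were 92 genes (0.751%), 49 higher (0.4%) and 43 lower (0.351%). The values of the LPS and Control animals did not overlap for 1686 genes (13.8%), 1046 of them higher (8.53%) and 640 lower (5.22%). By sign alone, 6513 genes (53.1%) stood above Control. Every direction given below is therefore a statement about these 6 animals, and an unadjusted p is given as a measure of distance and not as a call. Standard errors and p-values of limma rest on a spread shared by all 4 groups. They therefore also carry the spread among the animals with CsA.

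Most genes differed little between the groups. The median log2 difference, LPS minus Control, was 0.02, the quartiles were -0.13 and 0.16, and 5% of the genes lay below -0.44 and 5% above 0.49. The median standard error was 0.18, and 196 genes differed by 1 or more on the log2 scale, 95 higher and 101 lower. Genes with an unadjusted p under 0.05 were spread over the range of expression: they made up 4.80% of the genes with a mean under 2 FPKM, 7.05% of those between 2 and 10 FPKM, 6.80% between 10 and 100 FPKM and 4.54% at 100 FPKM or more. Assembled loci and Ensembl genes gave similar shares, 7.21% and 6.49%. Genes with a symbol, which the authors had chosen on these libraries, gave 71 of 224 (31.7%), and their groups did not overlap for 96 of 224 (42.9%); the gene lists below can be read only against these shares.

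**Figure D1:**
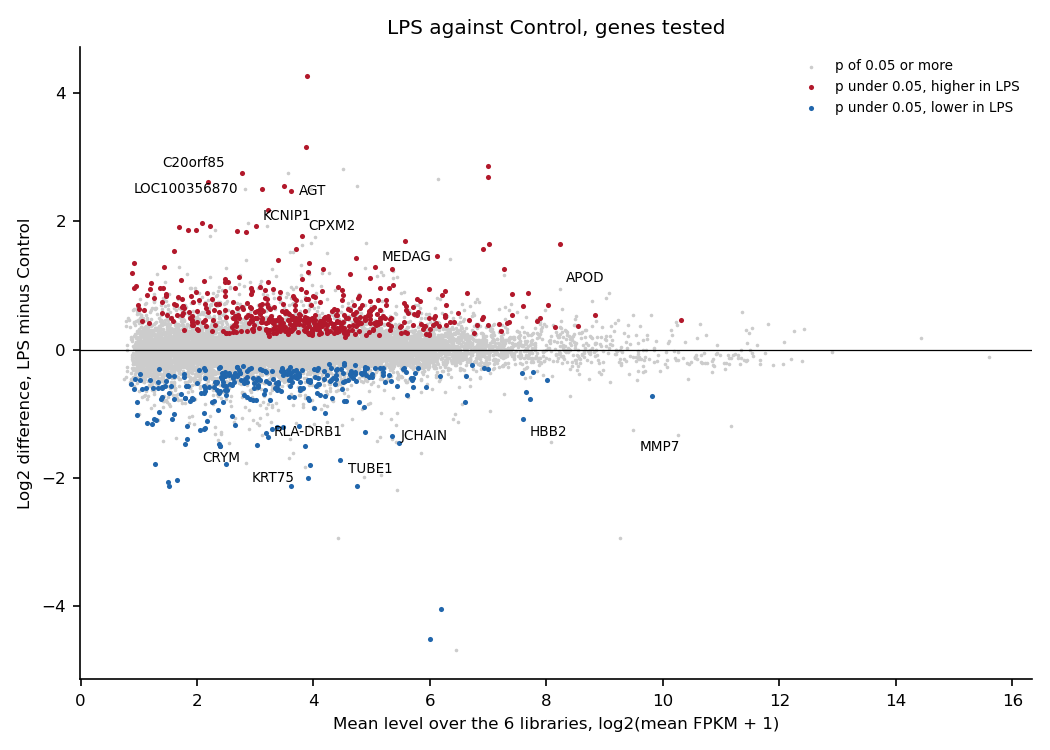
Each point is 1 of the 12258 genes; the x axis is the mean level over the 6 libraries as log2(mean FPKM + 1) and the y axis is the log2 difference, LPS minus Control. Red points (503 genes) and blue points (300 genes) had an unadjusted p under 0.05 in limma, none passed after adjustment, and named genes stand beside their points.

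One library often set the extreme value. Among the 503 genes higher in LPS, LPS 1 held the highest value of the 6 libraries for 360 (71.6%), LPS 2 for 86 and LPS 3 for 57. Among the 300 lower genes, LPS 1 held the lowest value for 173 (57.7%). Over all genes tested, LPS 1 held the highest value for 26.9%, LPS 2 for 12.1% and LPS 3 for 11.5%. The lowest value was in LPS 1 for 20.3%, in LPS 2 for 11.4% and in LPS 3 for 13.4%. Control libraries held the rest, whereas in the 503 and 300 genes the extreme named always lay in an LPS library. The shares over all genes are therefore not a like baseline for 71.6% and 57.7%. Without LPS 1 the 803 genes became 396, and without both LPS 1 and Control 3 they became 421. In each of the 6 fits that left out 1 LPS or Control library, 164 of the 803 genes kept an unadjusted p under 0.05, 108 higher and 56 lower. The 16 of these with a symbol were MEDAG, ZFP62, RASGRF2, CPXM2, CRIM1, C20orf85 and LOC100356870 on the higher side and TUBE1, KRT75, NECAB3, CRYM, TRAC, NRIP3, C1orf105, RLA-DRB1 and HBB2 on the lower side.

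Of the 12 genes with a symbol and the lowest p on the higher side, 11 kept the groups apart. The groups were apart for 13.8% of all genes and 42.9% of those with a symbol. The 12 were picked by p on these same libraries, so their separation is not independent evidence. MEDAG, a promoter of fat cell differentiation (ENSOCUG00000016718), was at 55.9, 36.5 and 46.2 FPKM in LPS 1, 2 and 3, against 23.1, 13.5 and 19.1 FPKM in Control 1, 2 and 3. Every LPS animal was above every Control animal. The log2 difference was 1.28 ± 0.33 (SE, n = 3 each; limma adjusted p = 0.754), and leaving out any 1 library kept it between 1.08 and 1.45. AGT, the angiotensinogen precursor of the angiotensin peptides (ENSOCUG00000000478), was at 13.8, 28.1 and 17.3 FPKM in LPS and 3.80, 1.20 and 3.32 FPKM in Control. The lowest LPS animal was thus more than 3 times the highest Control animal, and the log2 difference was 2.48 ± 0.84 (SE; limma adjusted p = 0.754).

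The zinc finger protein gene ZFP62 (ENSOCUG00000006541) was at 3.97, 2.92 and 2.43 FPKM in LPS and 1.40, 1.01 and 1.53 FPKM in Control, and RASGRF2, an exchange factor that activates Ras and Rac proteins, at 2.80, 2.67 and 1.46 FPKM in LPS and 1.02, 0.924 and 0.885 FPKM in Control. Neither overlapped between the groups, and the log2 difference was 0.82 ± 0.20 for ZFP62 and 0.74 ± 0.22 for RASGRF2 (SE; limma adjusted p = 0.754 for both). LOC100356870, which the authors annotate as securin-like, was at 11.7, 18.7 and 10.98 FPKM in LPS and 0.796, 1.88 and 2.23 FPKM in Control. It rested on few reads in the authors' deposited table, with 88, 136 and 81 counts in LPS and 6, 14 and 16 in Control.

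Several genes of this group were led by LPS 1. CPXM2, a secreted carboxypeptidase-like protein, was at 45.9, 13.8 and 6.22 FPKM in LPS and 3.08, 4.50 and 4.60 FPKM in Control. CRIM1, a membrane protein that binds bone morphogenetic proteins, was at 73.2, 37.8 and 29.8 FPKM in LPS and 18.6, 22.1 and 25.4 FPKM in Control. DTNA, a member of the dystrophin complex of the muscle membrane, was at 42.9, 20.2 and 20.5 FPKM in LPS and 12.0, 10.6 and 16.1 FPKM in Control. All 3 kept their groups apart, but the log2 difference without LPS 1 was 1.05 in place of 1.77 for CPXM2, 0.59 in place of 0.96 for CRIM1 and 0.63 in place of 0.98 for DTNA. The others of the 12 were EFHD1, MFSD9, MLF1 and the ciliary gene C20orf85, and without 1 library the difference was 0.60 in place of 0.94 for MFSD9 (LPS 1) and 0.53 in place of 0.83 for MLF1 (LPS 2). MFSD9 alone overlapped between the groups, with 12.1 FPKM in Control 2 and 11.3 FPKM in LPS 3. Over the 12 genes, log2 differences lay between 0.57 and 2.74, and 10 of them stand in the authors' deposited table of this comparison.

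On the lower side the 12 genes with a symbol included TUBE1, epsilon-tubulin of the centriole (ENSOCUG00000009644), at 7.93, 7.93 and 11.6 FPKM in LPS and 34.7, 24.5 and 38.7 FPKM in Control. KRT75, a type II keratin of hair follicle and nail epithelium (ENSOCUG00000002622), was at 4.90, 5.60 and 6.58 FPKM in LPS and 32.1, 18.5 and 18.3 FPKM in Control. Both genes had LPS values close to each other and far below the lowest Control value. The log2 difference was -1.72 ± 0.34 for TUBE1 and -1.80 ± 0.37 for KRT75 (SE, n = 3 each; limma adjusted p = 0.754 for both). Leaving out any 1 LPS or Control library moved neither above -1.54. CRYM, a binding protein of thyroid hormone, was at 2.65, 3.30 and 2.61 FPKM in LPS and 7.50, 21.1 and 5.70 FPKM in Control, and without Control 2 its log2 difference was -0.97 in place of -1.49.

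Genes of immune cells and blood were also among the 12. RLA-DRB1, the beta chain of a rabbit class II histocompatibility molecule that presents antigen to helper T cells, was at 19.2, 10.9 and 18.0 FPKM in LPS and 29.7, 36.3 and 57.1 FPKM in Control. TRAC, the constant part of the T cell receptor alpha chain, was at 0.655, 0.948 and 1.13 FPKM in LPS and 2.54, 2.59 and 4.06 FPKM in Control, on 8, 12 and 14 counts in LPS and 44, 36 and 51 counts in Control in the authors' deposited table. HBB2, a beta globin of red blood cells, was at 108, 126 and 125 FPKM in LPS and 374, 214 and 208 FPKM in Control. None of the 3 overlapped between the groups, with log2 differences of -1.29 ± 0.40 for RLA-DRB1, -1.08 ± 0.30 for TRAC and -1.09 ± 0.34 for HBB2 (SE; limma adjusted p = 0.754 for each). In whole tissue, fewer cells of a type and less RNA per cell cannot be told apart.

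The calcium-binding protein gene NECAB3 was at 0.359, 1.01 and 0.860 FPKM in LPS and 2.47, 2.24 and 2.37 FPKM in Control. SLC5A12, a sodium-coupled carrier of lactate, was at 1.39, 1.43 and 1.32 FPKM in LPS and 3.44, 7.51 and 3.81 FPKM in Control. NRIP3, C1orf105, ANKRD6 and TTC39C completed the group. LPS and Control animals did not overlap for any of the 12 genes, against 13.8% of all genes and 42.9% of those with a symbol. These 12 too were picked by p on the same libraries, and 11 of them are listed in the authors' deposited table of this comparison. Log2 differences lay between -1.80 and -0.51.

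**Figure D2:**
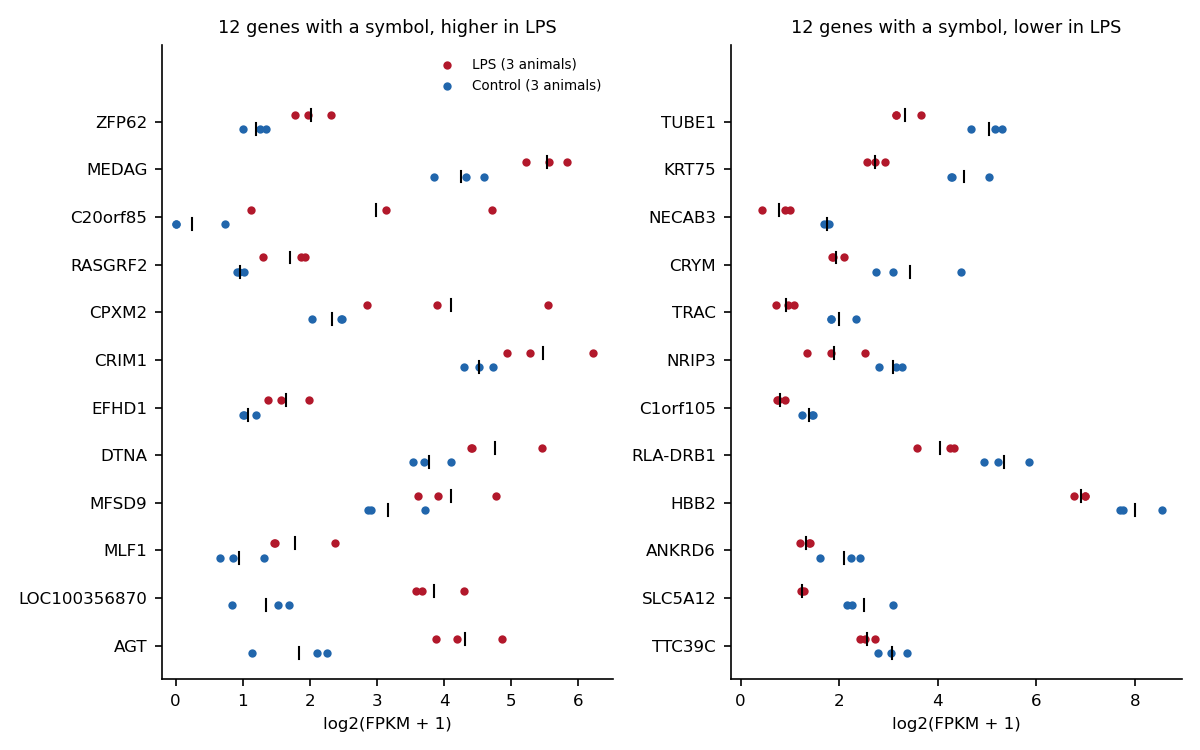
Each point is 1 animal, red for LPS and blue for Control, with the x axis as log2(FPKM + 1) and a black tick at the mean of 3; genes are ordered by p from the top. The 2 groups are separate for 11 of the 12 higher genes and for the 12 lower genes, all picked by p on these same libraries.

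Genes without a symbol held the smallest p on both sides. ENSOCUG00000009991, which the authors annotate as a phosphatidylinositol bisphosphate phosphatase, was listed at 0, 0 and 0.177 FPKM in LPS and at 2.73, 3.64 and 4.56 FPKM in Control, with 0, 0 and 2 counts in LPS and 32, 40 and 54 counts in Control in the authors' deposited table (log2 difference -2.12 ± 0.31, SE; limma adjusted p = 0.344). ENSOCUG00000029731 was at 1.34, 1.26 and 2.58 FPKM in LPS and at 0, 0.0704 and 0.0649 FPKM in Control, with 40, 38 and 78 counts in LPS and 0, 2 and 1 in Control (1.35 ± 0.21, SE; limma adjusted p = 0.344). The authors annotate it as like a class II beta chain, the family of RLA-DRB1, which stood in the opposite direction. Reads of near-identical class II genes can be split between them by the counting, so the level of each may be uncertain. How alike ENSOCUG00000029731 and RLA-DRB1 are in sequence was not tested.

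Both genes without a symbol, ENSOCUG00000029731 and ENSOCUG00000009991, were also low in the animals with CsA. ENSOCUG00000029731 did not exceed 0.117 FPKM in the LPS+CsA and CsA libraries, and ENSOCUG00000009991 was listed at 0, 0.0925 and 1.40 FPKM in LPS+CsA and at 0 in the 3 CsA libraries. Both genes passed the filter on low values only through the group without CsA in which they were high, and the filter did not use the libraries with CsA.

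Other genes near the top by p differed little but kept their replicates close. ENSOCUG00000017272 was at 10.6, 9.12 and 8.59 FPKM in LPS and 5.54, 4.86 and 5.92 FPKM in Control, and ENSOCUG00000013060 at 8.60, 7.45 and 6.33 FPKM in LPS and 4.32, 4.68 and 4.20 FPKM in Control. ENSOCUG00000015921 was at 9.90, 8.55 and 8.66 FPKM in LPS and 12.4, 14.2 and 12.2 FPKM in Control, and ENSOCUG00000017715 at 4.86, 5.99 and 6.33 FPKM in LPS and 10.2, 8.71 and 7.54 FPKM in Control. The log2 differences of these 4 were 0.69, 0.64, -0.47 and -0.54, with standard errors of 0.11 to 0.13. Rabbit_newGene_6876, an assembled locus on the minus strand of scaffold GL018974 from 160617 to 171307, was at 0.507, 0.370 and 0.215 FPKM in LPS and 1.48, 2.37 and 2.23 FPKM in Control; no source used here names the build of these coordinates.

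The widest differences came with wide spreads. Rabbit_newGene_7239, an assembled locus on the plus strand of scaffold GL019111 from 92575 to 165060, was at 494, 104 and 75.0 FPKM in LPS and 5.42, 31.2 and 49.3 FPKM in Control, so that the groups did not overlap and LPS 1 and Control 1 were the extremes. ENSOCUG00000013274 was at 36.4, 3.36 and 43.0 FPKM in LPS and under 0.01 FPKM in the 3 Control libraries. ENSOCUG00000022443 was at 0, 77.2 and 0 FPKM in LPS and 86.9, 145 and 71.0 FPKM in Control, and ENSOCUG00000008935 at 0, 60.6 and 2.16 FPKM in LPS and 59.8, 255 and 55.5 FPKM in Control. LPS 2 was thus at Control levels for both of these genes while the other 2 LPS animals were at or near 0. ENSOCUG00000015530 and ENSOCUG00000024462 also split within groups, with ENSOCUG00000024462 at 89.4 FPKM in LPS 2 and under 0.27 FPKM in LPS 1 and LPS 3. An exact 0 in these tables can be a failed estimate, and no fold change is given for these genes. The log2 differences given for other genes with an exact 0, among them C20orf85, carry the same limit.

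The genes that the interferon arm of the response would be read from stood lower in LPS. Of 58 interferon-stimulated genes in the list used, 9 were measured with a symbol, and all 9 stood below Control. Their median log2 difference was -1.16, against 0.02 over all genes tested. LPS and Control animals were apart for 5 of them, against 13.8% of all genes and 42.9% of genes with a symbol. None of the 9 had an unadjusted p under 0.05, and the limma adjusted p lay between 0.773 and 0.879. These p-values use the spread of all 4 groups, which was wide among the CsA animals, as for ISG15 at 22.3, 212 and 686 FPKM. The authors list all 9 as lower in LPS, so their shared direction is not independent evidence.

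MX2, a guanosine triphosphatase that restricts viruses, was at 21.6, 20.9 and 33.1 FPKM in LPS and 71.4, 148 and 43.1 FPKM in Control. ISG15, a ubiquitin-like modifier, was at 18.8, 12.6 and 29.1 FPKM in LPS and 24.5, 93.8 and 59.1 FPKM in Control. IRF7, the transcription factor that amplifies interferon production, was at 10.1, 9.07 and 19.4 FPKM in LPS and 20.5, 41.5 and 28.0 FPKM in Control. The genes varied together between animals: LPS 2 held the lowest value for 7 of the 9 and LPS 1 for the other 2, whereas Control 2 held the highest for 7 and Control 3 for 2. Control 1 and LPS 3 were close to each other, the summed level of the 9 genes being 80.6, 69.4 and 134 FPKM in LPS and 169, 390 and 208 FPKM in Control. OAS2, OASL, IFIT3 and DDX60, which act on foreign RNA, USP18, which restrains interferon signalling, and IFI44L made up the rest of the list.

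Neutrophil genes gave no stable direction, because 2 Control animals lay at opposite extremes. S100A8 and S100A9, the subunits of calprotectin, and S100A12 are abundant in neutrophils, and their summed level was 60.2, 73.3 and 64.2 FPKM in LPS and 8.68, 29.0 and 276 FPKM in Control. LPS 1, LPS 2 and LPS 3 were thus alike, while Control 1 was the lowest and Control 3 the highest of the 6 for all 3 genes. S100A8 alone was at 34.4, 44.1 and 48.2 FPKM in LPS and 4.46, 19.1 and 166 FPKM in Control, and its log2 difference of 0.70 was smaller than its standard error of 1.52 (limma adjusted p = 0.954). Without Control 1 the log2 difference was -0.44 for S100A8, -0.53 for S100A9 and -0.56 for S100A12, and without Control 3 it was 2.03 for S100A8, 1.50 for S100A9 and 1.62 for S100A12. The direction also differed by scale: mean FPKM was lower in LPS for all 3 genes, as for S100A8 with 42.2 FPKM in LPS and 63.2 FPKM in Control, whereas means of log2(FPKM + 1) were higher in LPS. The fourth measured antimicrobial gene was DMBT1, a secreted scavenger protein of mucosal surfaces, and none of the 4 had an unadjusted p under 0.05. DMBT1 was at 22.1, 8.28 and 12.5 FPKM in LPS and 5.72, 5.31 and 10.0 FPKM in Control, and without LPS 1 its log2 difference was 0.53 in place of 0.88.

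Control 3 held the highest value for both measured chemokines and for 4 of the 5 measured NF-kB feedback genes. CXCL10, which attracts T cells, was at 2.46, 1.46 and 10.1 FPKM in LPS and 2.15, 5.39 and 50.0 FPKM in Control, and CX3CL1, a membrane-bound chemokine, at 2.88, 7.74 and 7.42 FPKM in LPS and 3.78, 3.56 and 39.8 FPKM in Control. Without Control 3 their log2 differences were 0.02 and 0.50, in place of -1.15 and -0.55. Of the 5 measured NF-kB feedback and survival genes, 4 stood below Control and 1 above, with a median of -0.40 that became 0.04 without Control 3, and none had an unadjusted p under 0.05. SELE, the endothelial adhesion molecule E-selectin and highest in Control 1, was the one of the 5 whose groups did not overlap, at 0.864, 0.898 and 1.26 FPKM in LPS and 1.85, 1.65 and 1.42 FPKM in Control (log2 difference -0.40 ± 0.44, SE; limma adjusted p = 0.901). The standard error of SELE draws on all 4 groups, and SELE was at 1.48, 1.86 and 9.92 FPKM in LPS+CsA. TNFAIP3, the ubiquitin-editing enzyme that restrains NF-kB, was at 2.57, 2.93 and 3.77 FPKM in LPS and 3.15, 3.25 and 8.61 FPKM in Control. BIRC3, an inhibitor of cell death, was at 11.3, 16.8 and 13.7 FPKM in LPS and 9.41, 12.1 and 39.0 FPKM in Control. Outside Control 3, the LPS and Control values of both genes overlapped. The part of Control 3 in these group differences was not tested beyond leaving it out.

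Plasma cell genes stood lower in LPS, again with Control 3 at the top. JCHAIN, the joining chain of secreted polymeric antibody, was at 14.7, 21.7 and 20.4 FPKM in LPS and 31.1, 31.0 and 120.4 FPKM in Control (log2 difference -1.35 ± 0.54, SE; limma adjusted p = 0.754), and without Control 3 the difference was -0.71. MZB1, a chaperone of antibody assembly, was at 1.06, 1.53 and 1.83 FPKM in LPS and 2.46, 4.25 and 9.39 FPKM in Control, and IGHM, the heavy chain of IgM, at 1.81, 2.03 and 1.80 FPKM in LPS and 2.33, 3.56 and 5.02 FPKM in Control. Without Control 3 the log2 difference of MZB1 was -0.80 in place of -1.23. The 3 genes did not overlap between the groups, whereas the fourth, DERL3, did. All 4 measured members stood below Control with a median of -0.94, which was -0.51 without LPS 1 and Control 3. Of the 4, 3 were apart, against 13.8% of all genes and 42.9% of those with a symbol, and 2 had an unadjusted p under 0.05, against 6.55% and 31.7%. The measured erythroid genes pointed the same way: ALAS2, the first enzyme of heme synthesis in red cell precursors, was at 1.43, 2.01 and 1.83 FPKM in LPS and 5.80, 2.94 and 2.83 FPKM in Control, with HBB2 as given above; without Control 1 the log2 difference of ALAS2 was -0.50 in place of -0.77.

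Of 44 fat cell, lipid and glucocorticoid-responsive genes in the list used, 4 were measured, and all 4 stood above Control (median log2 difference 1.13). They were apart between the groups, against 13.8% of all genes and 42.9% of those with a symbol, and 2 of the 4 had an unadjusted p under 0.05, against 6.55% and 31.7%. All 4 are in the authors' deposited table as higher. KLF15, a transcription factor that glucocorticoids induce, was at 81.8, 49.7 and 36.3 FPKM in LPS and 26.8, 31.2 and 11.7 FPKM in Control. PDK4, the kinase that shuts off pyruvate dehydrogenase in fasting and under glucocorticoids, was at 10.5, 8.42 and 5.94 FPKM in LPS and 4.12, 5.27 and 1.95 FPKM in Control. APOD, a lipid-binding apolipoprotein, was at 620.1, 335 and 249 FPKM in LPS and 235, 196 and 154 FPKM in Control, and without LPS 1 its log2 difference was 0.58 in place of 0.95. MEDAG was the fourth. LPS 1 held the highest value for all 4, and the median was 0.89 without LPS 1 and 0.53 without LPS 1 and Control 3.

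Of the 5 measured angiotensin, prostaglandin and endothelin genes, LPS 1 held the highest value for 2, PTGIS and EDN2, and the lowest for 1, AGTR2, while AGT was highest in LPS 2. PTGIS, the enzyme that makes prostacyclin, was at 90.8, 42.7 and 19.5 FPKM in LPS and 15.9, 24.9 and 14.2 FPKM in Control, and EDN2, a constrictor peptide, at 47.4, 22.7 and 6.11 FPKM in LPS and 7.37, 5.79 and 2.76 FPKM in Control. LPS 3 was within the range of Control for both. Without LPS 1 the log2 difference was 0.67 in place of 1.21 for PTGIS and 1.12 in place of 1.75 for EDN2. The angiotensin receptors stood on the other side from their ligand precursor AGT: AGTR1 was at 2.12, 1.73 and 2.06 FPKM in LPS and 8.55, 3.08 and 2.92 FPKM in Control, without overlap, and AGTR2 at 2.84, 10.4 and 24.4 FPKM in LPS and 16.2, 18.3 and 34.4 FPKM in Control. Without LPS 1 the log2 difference of AGTR2 was -0.42 in place of -1.13, and without LPS 3 it was -1.78. Of the 5 genes, 3 stood above and 2 below Control.

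Matrix, epithelial and growth factor genes were mixed. MMP7, the matrix-degrading enzyme of uterine glands and one of the most abundant genes named here, was at 939, 194 and 312 FPKM in LPS and 1236, 958 and 655 FPKM in Control (log2 difference -1.25 ± 0.66, SE; limma adjusted p = 0.781). LPS 1 was within the range of Control while LPS 2 and LPS 3 were below it, and the difference was -1.90 without LPS 1 and -0.76 without LPS 2. Of the 6 measured matrix genes, 4 stood above and 2 below Control, with 1, CPXM2, at an unadjusted p under 0.05. GREM1, a secreted antagonist of bone morphogenetic proteins, was at 0.694, 0.109 and 0.667 FPKM in LPS and 4.61, 1.13 and 1.52 FPKM in Control, without overlap, and without Control 1 its log2 difference was -0.66 in place of -1.09.

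WNT11, a secreted Wnt ligand, was at 2.50, 3.14 and 3.66 FPKM in LPS and 2.24, 0.621 and 2.10 FPKM in Control. WNT6, a Wnt ligand of epithelia, was at 0.494, 1.33 and 3.15 FPKM in LPS and 1.34, 8.37 and 9.21 FPKM in Control. The pair thus stood in opposite directions, and of the 2 only WNT11 kept the groups apart. Without 1 library the log2 difference was 0.36 in place of 0.68 for WNT11 (Control 2) and -2.01 in place of -1.32 for WNT6 (Control 1). SOX9, a transcription factor of gland epithelium, was at 1.98, 2.96 and 2.54 FPKM in LPS and 3.45, 4.09 and 3.35 FPKM in Control, without overlap and with a small log2 difference, -0.41 ± 0.21 (SE; limma adjusted p = 0.773). MAL, a membrane raft protein of epithelia and T cells, was at 6.75, 5.16 and 5.28 FPKM in LPS and 2.48, 2.95 and 2.28 FPKM in Control. Its log2 difference was 0.91 ± 0.60 (SE; limma adjusted p = 0.826), on a spread that includes 2.39, 16.4 and 20.8 FPKM in CsA. With CsA the log2 difference was -0.72. The authors' counts of MAL, 160, 85 and 71 in LPS and 18, 17 and 14 in Control, lay further apart than its FPKM values.

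Genes of motile cilia were led by LPS 2, except TUBE1, which stood lower in LPS. C20orf85, a ciliary gene, was at 1.18, 25.2 and 7.79 FPKM in LPS and 0.668, 0 and 0 FPKM in Control, and ENKUR, a ciliary protein, at 0.931, 5.17 and 1.45 FPKM in LPS and 1.05, 0.992 and 0.332 FPKM in Control. LPS 2 held the highest value for 3 of the 4 measured members of this list, which included TUBE1. Without LPS 2 the log2 difference of C20orf85 was 1.88 in place of 2.74 and that of ENKUR 0.31 in place of 0.81. KCNIP1, a potassium channel subunit, was at 28.4, 7.32 and 2.18 FPKM in LPS and 2.13, 1.73 and 0.689 FPKM in Control, and 1.08 in place of 1.92 on the log2 scale without LPS 1. PPIA, the cyclophilin that CsA binds, was at 20.9, 25.0 and 22.5 FPKM in LPS and 0, 12.96 and 0.359 FPKM in Control, with values split in the same way in the animals with CsA, at 10.8, 11.3 and 0.142 FPKM in LPS+CsA and 0.132, 23.5 and 0.113 FPKM in CsA. PPIA has many processed copies in mammalian genomes, so its level is uncertain.

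**Figure D3:**
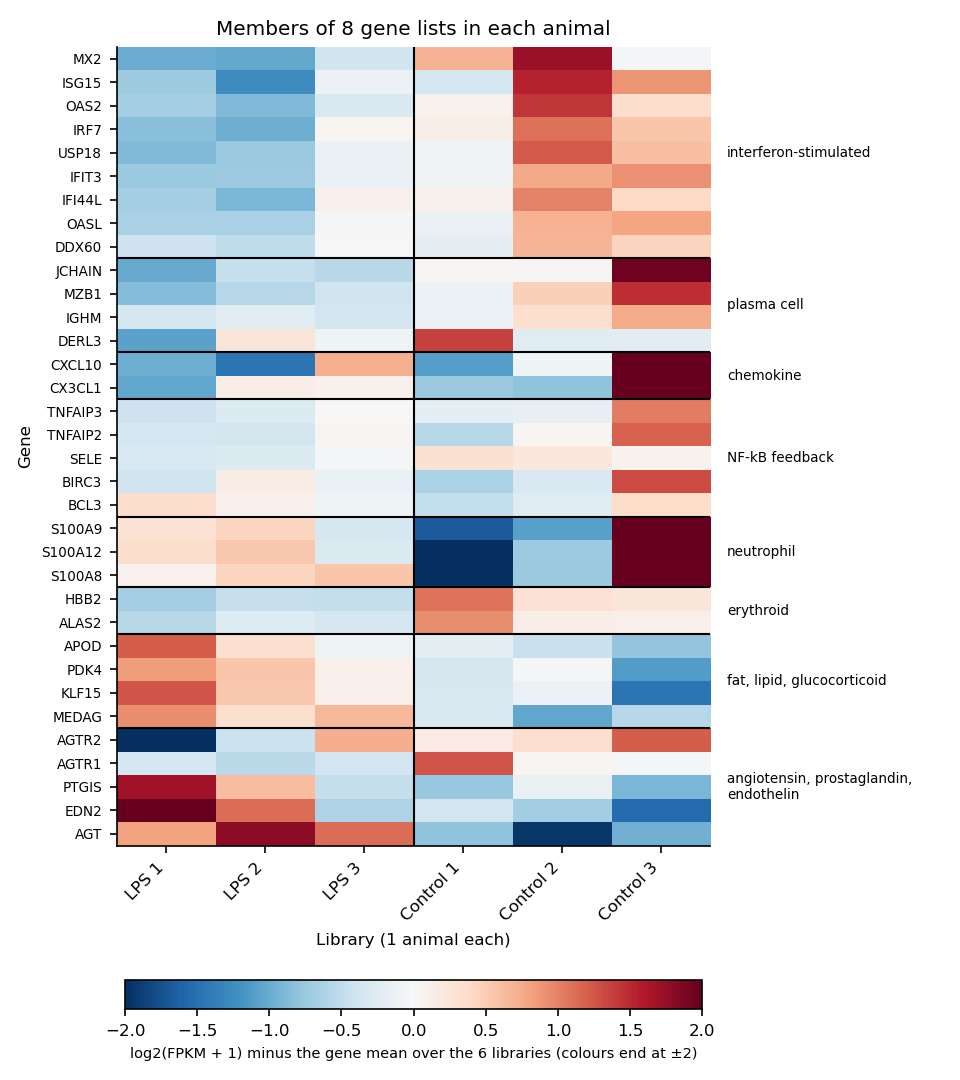
Colour shows log2(FPKM + 1) minus the mean of the gene over the 6 libraries, for the members of 8 lists in the 3 LPS and 3 Control animals; colours end at ±2. Control 3 is highest for the neutrophil genes, CXCL10 and CX3CL1, Control 2 for most interferon-stimulated genes, and LPS 1 for the fat, lipid and glucocorticoid genes.

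**Figure D4:**
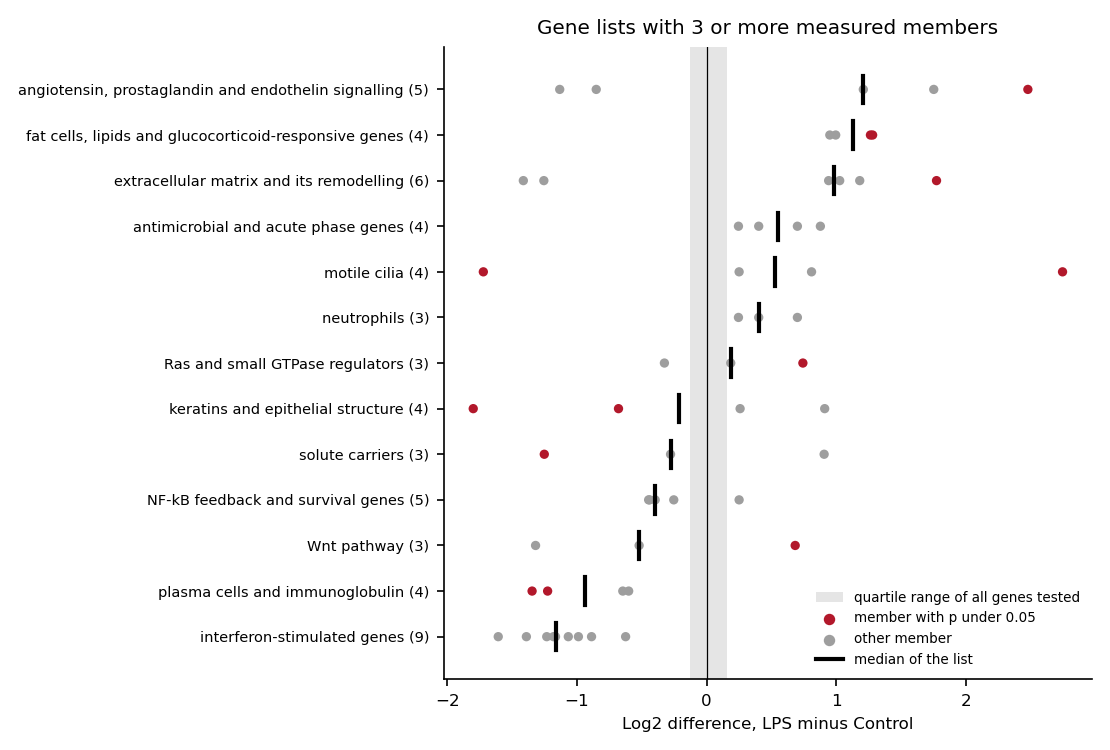
Each point is 1 gene of a list with 3 or more measured members (number in brackets), the x axis is the log2 difference, LPS minus Control, the black tick is the median of the list, and the grey band is the range between the quartiles of all 12258 genes (-0.13 to 0.16). Red points had an unadjusted p under 0.05; the median of the interferon-stimulated genes was -1.16 and that of the fat, lipid and glucocorticoid genes 1.13.

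The LPS+CsA and CsA animals gave a second reading of the LPS difference, in other animals and under CsA. No gene passed limma there either (0%, smallest adjusted p = 0.675). Before adjustment 864 genes (7.05%) had a p under 0.05, 518 higher (4.23%) and 346 lower (2.82%), and the groups did not overlap for 1565 (12.8%), 802 higher (6.54%) and 763 lower (6.22%). By sign, 6274 genes (51.2%) stood above CsA. The 503 genes higher in LPS than in Control were also higher in LPS+CsA than in CsA for 431 (85.7%), with a median log2 difference of 0.22 with CsA and 0.49 without. The 300 lower genes were lower again for 182 (60.7%), with a median of -0.08 with CsA and -0.51 without. Over all 12258 genes, 7860 (64.1%) had the same sign in both. The higher genes thus kept their sign above that share and the lower ones below it.

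The 2-fold genes parted further. Of the 49 higher ones, 37 (75.5%) were higher with CsA too, at a median of 0.54, against 1.53 without CsA. Of the 43 lower ones, 14 (32.6%) were lower with CsA, and 29 were not; their median was 0.46 with CsA and -1.35 without. The difference between the LPS effects with and without CsA, tested as an interaction in limma, passed for 0 genes (smallest adjusted p = 0.477), and 370 genes (3.02%) had an unadjusted p under 0.05. Of the 43 lower genes 29 were among these 370, and of the 49 higher genes 13, but both sets had been picked on 1 of the 2 effects that the interaction compares.

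Named genes followed the same split. With CsA, AGT was at 18.3, 48.0 and 3.56 FPKM in LPS+CsA and 2.23, 0.936 and 12.2 FPKM in CsA, higher in 2 of 3 animals than any CsA animal. RASGRF2 was at 2.50, 1.37 and 1.42 FPKM in LPS+CsA and 0.477, 0.834 and 0.771 FPKM in CsA, again without overlap, and its log2 difference was 0.69 ± 0.22 (SE; limma adjusted p = 0.678), close to that without CsA. APOD, not among the 12 higher genes, was at 270.1, 183 and 334 FPKM in LPS+CsA and 54.7, 62.1 and 166 FPKM in CsA, also without overlap. In all, 10 of the 12 higher genes and 3 of the 12 lower genes kept their sign. Some signs were near 0 and carry no direction. The log2 difference with CsA was 0.0048 for MFSD9, -0.0032 for SLC5A12 and -0.054 for C1orf105, counted as kept, and 0.035 for ANKRD6, counted as lost. LOC100356870 did not keep its sign, at 0.651, 0.314 and 7.50 FPKM in LPS+CsA and 1.29, 1.37 and 18.8 FPKM in CsA.

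KRT75 was at 25.7, 13.02 and 29.2 FPKM in LPS+CsA and 11.9, 5.54 and 15.1 FPKM in CsA, with a log2 difference of 1.02 ± 0.37 (SE) against -1.80 without CsA (interaction 2.82, limma adjusted p = 0.539). JCHAIN was at 65.7, 99.6 and 56.3 FPKM in LPS+CsA and 10.2, 38.2 and 17.1 FPKM in CsA, and MZB1 at 3.45, 12.1 and 5.81 FPKM in LPS+CsA and 1.50, 3.25 and 2.32 FPKM in CsA. By value all 4 plasma cell genes stood above CsA with a median of 1.24, and below Control without CsA. With CsA, 3 of them did not overlap between the groups, against 12.8% of all genes. All 4 stand in the deposited table of LPS+CsA against LPS on the higher side. That choice favours high LPS+CsA and low LPS values, so neither direction is independent evidence. Of the 12 lower genes, 8 also stand in the deposited table of LPS+CsA against LPS on the higher side, which favours high LPS+CsA values among genes that have a symbol.

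The interferon-stimulated genes stood lower in both sets of animals. All 9 were below the CsA mean in LPS+CsA on the log2 scale, with a median of -1.58, and 2 of the 9 had an unadjusted p under 0.05. None kept the groups apart, because CsA 1 was low: ISG15 was at 45.6, 27.5 and 34.0 FPKM in LPS+CsA and 22.3, 212 and 686 FPKM in CsA, and MX2 at 98.1, 83.6 and 40.1 FPKM in LPS+CsA and 27.5, 240.0 and 309 FPKM in CsA. The spread among saline-infused animals was thus wide with and without CsA, from 24.5 to 93.8 FPKM of ISG15 in Control and from 22.3 to 686 FPKM in CsA.

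**Figure D5:**
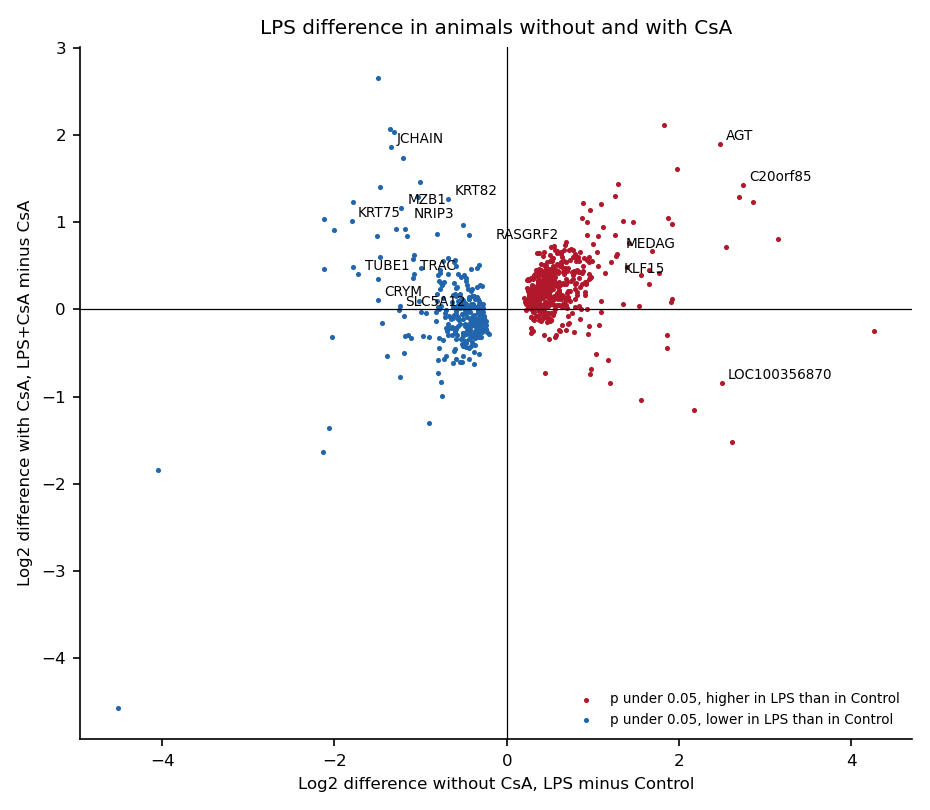
Each point is 1 of the 803 genes with an unadjusted p under 0.05; the x axis is the log2 difference LPS minus Control and the y axis LPS+CsA minus CsA, in other animals. Of the red genes, higher in LPS, 85.7% lie above 0 on the y axis, and of the blue genes, lower in LPS, 60.7% lie below it.

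In the authors' deposited table for this comparison stand 283 genes, 160 on the higher and 123 on the lower side. The filter used here was passed by 215 of them, and 68 did not reach 1 FPKM in 3 libraries; the median count of a listed gene, over the 6 libraries, was 153 for those that passed and 28.75 for those that did not. All 215 had the same sign in limma, as they come from the same libraries, 100 reached an unadjusted p under 0.05, and 0 passed after adjustment. LPS and Control animals were apart for 124 of the 215. Over all genes tested, 6.55% reached an unadjusted limma p under 0.05 and 13.8% were apart. The 215 were chosen by the authors on these same libraries, so neither count is independent evidence. Of the 92 genes with an unadjusted p under 0.05 and a 2-fold difference here, 36 are not in the authors' deposited table.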

How the data were processed

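Rabbit uterine body RNA was sequenced by the authors in 12 animals, with 1 µg of total RNA per Illumina library, per the labels' protocols. The submitters' processing notes name TopHat2, Cufflinks and Cuffnorm, without versions, and no source used here names the genome build. Deposited FPKM tables hold 1 value per gene and library. The authors' deposited comparison tables add whole-number counts, a log2 fold change and an unadjusted p-value for the genes they list; a file header names edgeR for their fold changes. Positions of assembled loci are as deposited, and no sequence was used. Read totals are not known, so no counting interval is given.

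Here, log2(FPKM + 1) was fitted with a mean per group over all 12 libraries in limma 3.58.1 (R 4.3.3), with a variance trend, two-sided, with Benjamini-Hochberg adjustment over the 12258 genes. A log2 difference on this scale understates changes of low genes. P-values compare animals, 3 per group. Tables and plots used Python 3.11.15, numpy 2.4.6, pandas 2.3.3 and matplotlib 3.10.9. The test was checked on simulated data.

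The genes named were, in each direction, 12 with a symbol and 4 without one by lowest p, 3 without a symbol by largest difference, and up to 4 members of each of 32 gene lists with the highest mean. Of the lists, 5 had no member analysed and 14 had 1 or 2; a few genes are not reported here. AGTR1, SELE and the sums and members of lists beyond these were chosen after their values were seen. The members and lists were chosen with earlier results of these data known. Other settings tried were array weights, robust variances, a fit without the variance trend, a fit of the compared groups by themselves, a replicate block, median-of-ratios and quantile rescaling, a pseudocount of 0.1, 3 other filters (none, 1 FPKM in 3 of 12 libraries, mean FPKM of 5 or more) and leaving out each library; leaving out LPS 1 and Control 3 together was added after seeing the data.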

Additional observations from a re-analysis of the deposited data

Results flagged for a closer look

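For 7 of the 85 named genes the LPS and Control animals did not overlap in one direction, and the LPS+CsA and CsA animals did not overlap in the opposite direction. The authors list 6 of the 7, all but NRIP3, as differing between LPS+CsA and LPS in this same direction, so that choice could give them their symbol and the pattern is not independent evidence. The interaction, the log2 difference LPS+CsA minus CsA less that of LPS minus Control, was 3.21 for JCHAIN, 2.39 for MZB1 and 1.97 for IGHM, all of plasma cells. It was 2.11 for NRIP3 1.47 for TTC39C, 1.13 for SOX9 and -0.92 for WNT11. None passed the limma interaction test after adjustment, the smallest adjusted p of the 7 being 0.495, for TTC39C. TTC39C was at 4.39, 5.65 and 4.74 FPKM in LPS and 5.92, 7.24 and 9.37 FPKM in Control. With CsA it was at 10.3, 11.2 and 7.95 FPKM in LPS+CsA and 4.28, 5.32 and 3.96 FPKM in CsA. NRIP3 was at 1.54, 2.58 and 4.79 FPKM in LPS and 7.92, 8.72 and 6.02 FPKM in Control. With CsA it was at 5.49, 3.10 and 8.66 FPKM in LPS+CsA and 1.96, 2.09 and 3.07 FPKM in CsA. Over all 12258 genes, 13.8% did not overlap without CsA and 12.8% with CsA, each in either direction. The share of all genes with both in opposite directions was not counted, so whether 7 is many cannot be said.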

How the results depend on the processing

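With no filter 2 genes passed the adjusted test of LPS against Control, ENSOCUG00000029731 and ENSOCUG00000026042, the second at 0.233, 0.239 and 0.244 FPKM in LPS and 0 in Control. Leaving out 1 library gave 0 to 1 such gene, ENSOCUG00000009991 without LPS+CsA 3. Genes with an unadjusted p under 0.05 numbered 396 (without LPS 1) to 1011 (without LPS 3) when 1 library was left out, and 421 without LPS 1 and Control 3; with a 2-fold difference they numbered 77 to 194, 145 at a pseudocount of 0.1 and 56 at a mean of at least 5 FPKM. Non-overlapping genes numbered 2586 to 3229 without 1 library and 4331 without both, fewer values overlapping by construction. LPS+CsA against CsA gave 1 gene with the compared groups alone and 0 to 1 without 1 library. The labels do not say whether replicate numbers pair the animals. Deviations of LPS and Control libraries of the same number correlated at 0.08, 0.06 and 0.20. All 3 LPS libraries correlated best with the Control of their own number. The replicate block gave 951 genes at an unadjusted p under 0.05, against 803 in the main fit, and 0 after adjustment. Whether libraries of the same number share anything was not tested further. Of 85 named genes, 73 kept their sign in all 24 other settings. Without 1 library, BIRC3 lay between -0.63 and 0.34, CX3CL1 between -1.09 and 0.50, CXCL10 between -1.99 and 0.019, MSR1 between -0.069 and 0.64, RGS1 between -0.088 and 0.61, RND1 between -0.66 and 0.13, S100A8 between -0.44 and 2.03, S100A9 between -0.53 and 1.50, S100A12 between -0.56 and 1.62, TNFAIP2 between -0.83 and 0.043, and WIF1 between -1.78 and 0.45. Without LPS 1 and Control 3 the differences were 0.47 for BIRC3, 0.88 for CX3CL1, 0.22 for CXCL10, -0.21 for RGS1, 0.37 for RND1, 0.11 for TNFAIP2 and 0.044 for TNFAIP3. Array weights turned S100A8 to -0.24, S100A9 to -0.71, S100A12 to -0.50 and WIF1 to 0.93. The cause of these turns was not tested.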
